A study of Mus musculus with 65 samples.

Results

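At day 0, 3788 of the 14776 H3.3K27me3 peaks of the first replicate carried both K27me3 marks by the authors' peak lists. Each of these peaks lies on chromosome 1 to 19 or X and overlaps, by at least 1 bp, an H3.3K27me3 peak of the second replicate and an H3K27me3 peak of both replicates. They are called members below, and a mark is called kept at day 6 where a member overlaps a peak of that mark in both day 6 replicates. The cells were wild-type mouse embryonic stem cells (mESC), grown with leukaemia inhibitory factor (LIF) at day 0, then as embryoid bodies without LIF and with 10 µM all-trans retinoic acid to day 3 or day 6. Chromatin immunoprecipitation with sequencing (ChIP-seq) was made at days 0 and 6 with 4 antibodies (H3.3K27me3, a custom antibody; H3K27me3; H3.3; H3), in biological duplicates per the series' design. All 16 ChIP libraries are wild type. Polyadenylated RNA was sequenced from wild type in 2019 (days 0, 3 and 6, 2 libraries each) and in 2020 from wild type (1 library at day 0, 2 at day 6), from H3.3A knockout cells and from H3.3K27A cells (2 libraries at each of days 0 and 6). Both edited lines were made with CRISPR/Cas9, and the number of clones and the edited alleles are not given in the sources used here.

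H3.3 is the histone H3 variant that is placed into chromatin outside DNA replication, and it is encoded by H3f3a and H3f3b. Polycomb repressive complex 2 methylates lysine 27 of H3 and H3.3, and the trimethylated form marks silent developmental genes in embryonic stem cells, mostly at promoters rich in CG dinucleotides. Retinoic acid activates many of these genes, among them the HOX genes, and drives the cells towards neural and other embryonic lineages.

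The members included promoters of 4 kinds after 6 days, and 6 are printed as examples, which cannot show a difference between those kinds. Each holds 300 bases around the RefSeq gene start (GRCm38.p6), most of them before it, 5′ to 3′ on the gene's strand, with CG dinucleotides, searched as the letters CG, in capitals. Of the 26794 mouse promoters of the same length, 94.3% hold a CG, and the median promoter holds 7. Isl2 (chr9:55540899-55541198, plus strand, 23 CG), a LIM homeobox factor of motor neurons, had both marks kept. Tcf12 (chr9:72111770-72112069, minus strand, 41 CG), a partner of proneural factors, and Vmn1r175 (chr7:23809151-23809450, minus strand, 2 CG), a vomeronasal receptor gene, had H3.3K27me3 alone kept. Gdf7 (chr12:8301905-8302204, minus strand, 26 CG), a BMP-family ligand of the roof plate, had H3K27me3 alone kept. Ddx4 (chr13:112652261-112652560, minus strand, 38 CG), a germ cell helicase, and Cyp26a1 (chr19:37697558-37697857, plus strand, 26 CG), the enzyme that breaks down retinoic acid, had neither mark kept. Of the 6, Vmn1r175 alone holds fewer CG than the median promoter. Isl2 and Cyp26a1 were chosen after their values were seen. The sequences of Gm13271 (H3K27me3 alone, 0 CG), Ankar (neither mark, 10 CG) and Prdm12 (both marks, 17 CG) were also taken and are not printed.
Isl2: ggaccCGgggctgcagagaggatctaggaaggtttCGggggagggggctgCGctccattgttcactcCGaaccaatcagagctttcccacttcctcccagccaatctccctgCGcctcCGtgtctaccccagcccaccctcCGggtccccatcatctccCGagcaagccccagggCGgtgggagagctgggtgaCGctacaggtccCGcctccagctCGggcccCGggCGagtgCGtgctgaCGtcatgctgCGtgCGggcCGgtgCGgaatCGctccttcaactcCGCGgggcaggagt
Tcf12: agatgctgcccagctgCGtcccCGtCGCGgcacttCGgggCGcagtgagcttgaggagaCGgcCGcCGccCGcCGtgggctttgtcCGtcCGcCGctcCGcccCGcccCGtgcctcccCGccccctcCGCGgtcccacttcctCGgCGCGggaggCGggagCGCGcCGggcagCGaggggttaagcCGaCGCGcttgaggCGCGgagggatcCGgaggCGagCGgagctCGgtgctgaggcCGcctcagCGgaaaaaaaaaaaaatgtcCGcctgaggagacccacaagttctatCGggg
Vmn1r175: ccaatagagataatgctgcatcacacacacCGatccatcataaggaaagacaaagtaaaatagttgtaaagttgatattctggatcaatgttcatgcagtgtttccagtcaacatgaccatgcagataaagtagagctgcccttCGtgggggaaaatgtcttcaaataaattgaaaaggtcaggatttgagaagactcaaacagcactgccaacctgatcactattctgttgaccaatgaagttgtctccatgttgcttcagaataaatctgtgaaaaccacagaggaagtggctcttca
Gdf7: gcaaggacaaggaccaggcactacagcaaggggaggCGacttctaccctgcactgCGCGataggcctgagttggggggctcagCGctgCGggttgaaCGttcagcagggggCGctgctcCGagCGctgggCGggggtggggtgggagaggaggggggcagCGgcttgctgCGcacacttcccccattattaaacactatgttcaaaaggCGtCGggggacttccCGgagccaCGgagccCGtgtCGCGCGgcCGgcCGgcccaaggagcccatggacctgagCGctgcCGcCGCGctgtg
Ddx4: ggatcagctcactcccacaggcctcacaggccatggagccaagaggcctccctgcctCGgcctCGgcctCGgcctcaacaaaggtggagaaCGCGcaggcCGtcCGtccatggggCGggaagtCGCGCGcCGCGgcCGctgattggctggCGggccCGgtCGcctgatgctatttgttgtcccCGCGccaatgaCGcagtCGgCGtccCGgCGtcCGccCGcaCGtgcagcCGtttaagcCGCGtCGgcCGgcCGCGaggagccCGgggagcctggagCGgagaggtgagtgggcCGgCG
Cyp26a1: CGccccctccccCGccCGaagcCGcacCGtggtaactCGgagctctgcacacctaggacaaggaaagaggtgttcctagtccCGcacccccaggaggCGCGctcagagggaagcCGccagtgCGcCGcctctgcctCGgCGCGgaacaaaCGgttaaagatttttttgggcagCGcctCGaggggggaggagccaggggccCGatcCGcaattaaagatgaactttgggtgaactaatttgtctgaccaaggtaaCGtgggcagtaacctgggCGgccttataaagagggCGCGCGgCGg

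Chromosome 8 stood apart in all 16 libraries, and it held 1442 of the members (38.1%). It carried 111 members per 10 Mb, against 5.50 to 15.1 (median 9.98) on the other autosomes. Filtered peaks covered 36.7% to 61.8% of its length in every library, and 49.8% to 61.8% in the 4 H3 libraries, whose antibody is not directed at a methylated residue. The medians over the other autosomes ran from 2.51% to 15.6%. The X chromosome was covered by at most 0.232% and held 4 members. The members of chromosome 8 were also wide, with a median of 31346 bp against 9936 bp for the other 2346. The part of DNA copy number or of the absence of an input control in this cover was not tested, so each count below is given for the 2346 members outside chromosome 8, with the count of all members beside it where the difference matters.

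**Figure D1:**
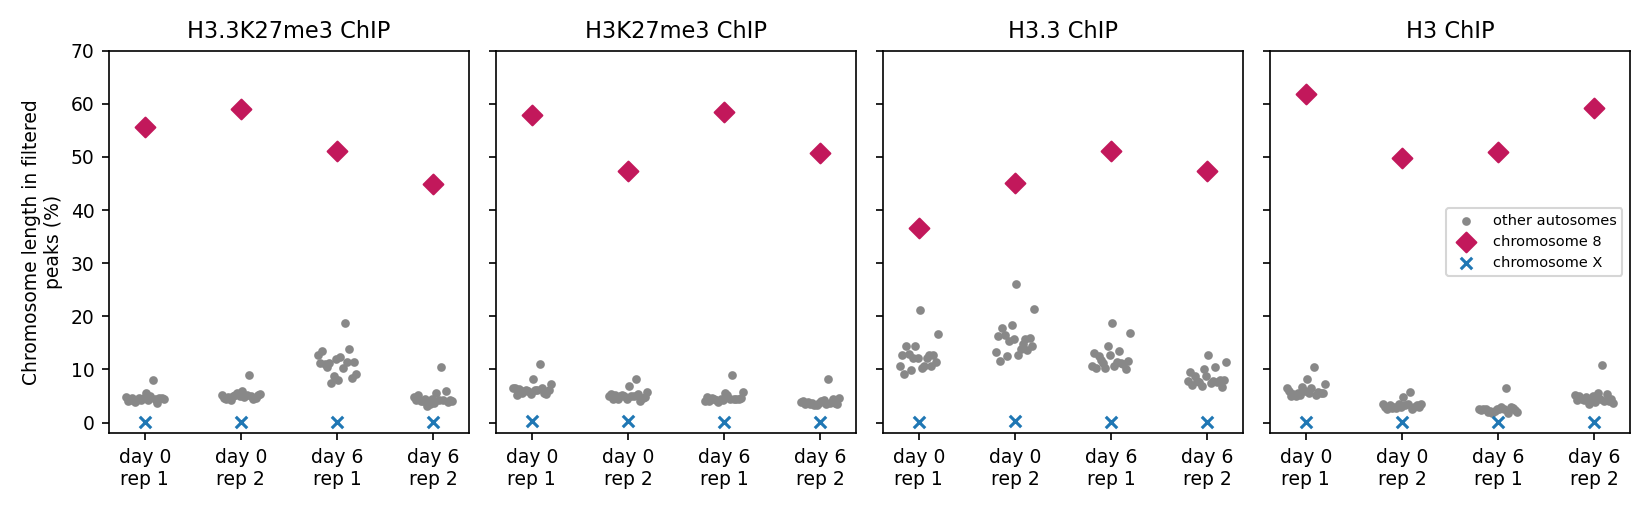
Share of each chromosome's length (percent) covered by filtered peaks, in one panel per antibody, with days and replicates along the x axis. Grey points are autosomes other than 8, the diamond is chromosome 8 and the cross chromosome X. Chromosome 8 lies at 36.7% to 61.8% in all 16 libraries, above every other chromosome.

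The members were chosen on the peaks of 4 libraries, so their day 0 enrichment is a description. Enrichment here is the authors' fold of the pileup over the genome-wide mean. The lowest enrichment kept in the peak lists was 2.09 and 2.37 in the H3.3K27me3 replicates and 2.36 and 2.31 in the H3K27me3 replicates. The next values below, which were left out of those lists, were 1.975, 2.21, 2.2 and 2.15. In the first H3.3K27me3 replicate 390 members (10.3%) sat exactly at the lowest value kept, and in the second 775 (20.5%). An enrichment of 5 or more was reached by 78 and 96 members for H3.3K27me3 and by 482 and 626 for H3K27me3. Many members therefore lie near the limit of the H3.3K27me3 lists, and fewer lie near that of the H3K27me3 lists.

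Outside chromosome 8, H3K27me3 peaks were kept at 1425 members (60.7%) at day 6 and H3.3K27me3 peaks at 430 (18.3%). The members divided into 359 with both marks kept (15.3%), 71 with H3.3K27me3 alone (3.03%), 1066 with H3K27me3 alone (45.4%) and 850 with neither (36.2%). With chromosome 8 included, the counts were 1399, 183, 1281 and 925 of 3788. On chromosome 8 itself, 1040 of the 1442 members (72.1%) kept both. In a single day 6 library, 36.1% and 25.3% of the members outside chromosome 8 overlapped an H3.3K27me3 peak, and 75% and 70.4% overlapped an H3K27me3 peak. These shares have no test, because the antibodies differ in depth and in the height of their peaks. The day 6 H3.3K27me3 libraries held 30.45 and 34.20 M tags against 71.13 and 49.87 M at day 0, while the H3K27me3 libraries held 55.59 and 51.40 M against 50.09 and 51.49 M. The lowest enrichment in the H3.3K27me3 lists was also higher at day 6, at 2.58 in both replicates against 2.09 and 2.37 at day 0, while the H3K27me3 lists began at 2.30 and 2.31 at day 6. The median H3.3K27me3 enrichment of these members at day 0, 2.56 and 2.68, lies near the day 6 limit, so a member could be classed as not kept with no change in its enrichment.

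Members whose peak was not kept often still had a call at day 6. Calls are counted here whether or not they passed the filter of the lists. Of the 1916 members outside chromosome 8 whose H3.3K27me3 peak was not kept, 573 (29.9%) still had one in both day 6 libraries. Another 724 had a call in 1 library and 619 (32.3%) had none. Of the 921 members whose H3K27me3 peak was not kept, 630 (68.4%) still had a call in both, 211 in 1 and 80 (8.69%) in none. The median H3K27me3 enrichment of the calls went from 3.62 and 3.84 at day 0 to 2.74 and 2.62 at day 6, over the 95.1% and 89.1% of members with a call. For H3.3K27me3 it was 2.56 and 2.68 at day 0, and 2.58 and 2.36 at day 6 over the 64.3% and 52.0% with a call. A part of the members classed as not keeping a mark thus still had calls at day 6. Some of these calls were filtered peaks of 1 replicate, such as H3.3K27me3 at Ankar, at 5.58 in the second day 6 replicate.

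Wide members kept their marks more often than narrow ones. The median width was 23498 bp where both marks were kept, 11966 bp with H3.3K27me3 alone, 9665 bp with H3K27me3 alone and 7983.5 bp with neither. Across 5 width classes, from under 5 kb to at least 40 kb, H3.3K27me3 was kept at 6.84%, 7.78%, 17.1%, 38.8% and 75.9% of members. The same classes gave 48.6%, 53.6%, 63.0%, 74.5% and 96.4% for H3K27me3. A wide region has more room for an overlap of 1 bp, so width and fate are not independent measures. The longest member, 475814 bp on chromosome 17, spans the genes 1700097N02Rik, Btbd9, Dnah8, Glo1 and Glp1r and kept both marks.

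**Figure D2:**
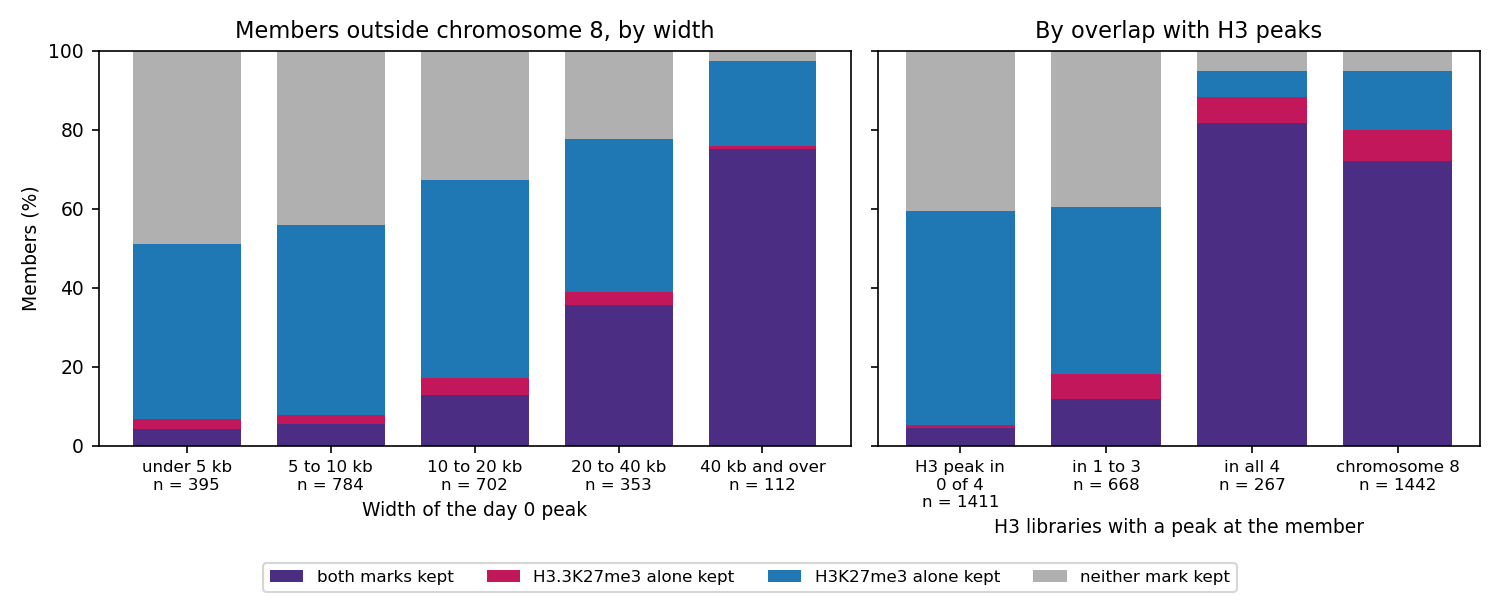
Share of members (percent) with each outcome at day 6, stacked. The left panel divides members outside chromosome 8 by the width of the day 0 peak, and the right panel by the number of H3 libraries with a peak at the member, with chromosome 8 as the last bar. Both marks were kept at 4.46% of members with no H3 peak, at 81.6% of those with one in all 4 libraries, and at 72.1% of chromosome 8 members.

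Total H3, which the choice of members did not use, divided the members. Outside chromosome 8, 267 members overlapped an H3 peak in all 4 H3 libraries, 668 in 1 to 3 and 1411 in none. Where all 4 had a peak, 81.6% of members kept both marks and 30.0% overlapped a promoter, defined as 1000 bp on each side of a gene start. Where none had a peak, only 63 of 1411 (4.46%) kept both marks, 10 kept H3.3K27me3 alone, 767 (54.4%) H3K27me3 alone and 571 (40.5%) neither, while 72.6% overlapped a promoter. H3.3K27me3 was kept at 73 of these 1411 (5.17%) and H3K27me3 at 830 (58.8%). Read the other way, 60.7% of members that kept both marks had an H3 peak in all 4 libraries, against 1.59% with H3K27me3 alone and 1.65% with neither. The wider members were those with H3 peaks in all 4 libraries, with a median of 22252 bp against 8296 bp for members without an H3 peak. Most members that kept both marks by the peak lists were thus also enriched for H3 itself, and the part of mapping or copy number in that enrichment was not tested.

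Among members at a promoter that kept both marks, those with the highest day 0 enrichment were of this kind. Some members without a promoter were strong too, such as one on chromosome 2 of 26794 bp whose lowest day 0 enrichment was 20.8. The members at promoters lie at Sfi1, Mir101c, Pisd-ps1, Smarca5-ps and Gm13034. At Sfi1 (chr11:3148606-3200198) the enrichment was 33.5 and 39.3 at day 0 and 34.1 and 33.7 at day 6 for H3.3K27me3. It was 31.8 and 33.7 at day 0 and 29.2 and 33 at day 6 for H3, so this member was high with both antibodies at both days. Members without an H3 peak gave a different picture. At Isl2 (chr9:55538214-55550720) H3.3K27me3 was 5.69 and 4.10 at day 0 and 2.82 and 2.79 at day 6, and H3K27me3 was 7.24 and 6.61, then 5.18 and 3.69. At Prdm12 (chr2:31628093-31656005), which encodes a zinc finger factor of sensory neurons, H3.3K27me3 was 3.60 and 3.79, then 2.82 and 2.58, and H3K27me3 was 5.98 and 5.99, then 4.46 and 4.16. Lhx2, Pitx1 and Nr2e1, which encode factors of forebrain, hindlimb and neural stem cells, were of the same kind. These examples without an H3 peak were chosen after their values were seen.

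Among members that kept H3K27me3 alone, Onecut3 and Gdf7 had no or little H3.3K27me3 signal left. At Onecut3 (chr10:80487234-80515000), which encodes a homeobox factor of neurons, H3.3K27me3 was 4.88 and 4.26 at day 0, with no call in the first and 2.15 in the second day 6 replicate. H3K27me3 there was 5.03 and 7.07 at day 0 and 4.03 and 4.31 at day 6. At Gdf7 (chr12:8295581-8303531) H3.3K27me3 went from 4.18 and 4.26 to 2.11 and no call, and H3K27me3 from 5.82 and 5.22 to 3.60 and 3.08. The other named members of this kind lie at Fcgr3, at the interferon gene Gm13271 and its neighbours, and at H60b and Raet1e, ligands of natural killer cell receptors. The Fcgr3 and H60b members still had a filtered H3.3K27me3 peak in the second day 6 replicate, at 6.01 and 3.22. The Gm13271 member had calls of 2.11 and 2.15 at day 6. Among members that kept H3.3K27me3 alone, Tcf12 (chr9:72108529-72115047) went from 2.79 and 2.84 to 2.58 and 2.58 for H3.3K27me3 and from 4.88 and 4.15 to 2.45 and 2.15 for H3K27me3. Vmn1r175 (chr7:23803977-23815773) went from 3.02 and 3.00 to 4.46 and 2.79, and from 3.62 and 2.92 to 2.16 and 2.46. Dusp4 on chromosome 8, the Pcdhga and Pcdhgb genes and Sycp1 were the others. Each named member with H3.3K27me3 alone still had a filtered H3K27me3 peak in 1 of the 2 day 6 replicates, such as 4.18 at Dusp4. The day 6 H3.3K27me3 values of Tcf12 were the lowest kept in those lists.

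Among members that kept neither mark, the peak at Cyp26a1 and its neighbour Cyp26c1 (chr19:37680657-37710221) had H3.3K27me3 enrichment of 3.37 and 3.32 at day 0 and no call in either day 6 library. H3K27me3 there was 4.56 and 5.22, then 1.87 and 2.00. At Ddx4 (chr13:112649380-112656551) H3.3K27me3 went from 4.07 and 3.95 to 2.11 and 2.15, and H3K27me3 from 4.25 and 4.00 to 1.87 and 2.15. At Rrs1 (chr1:9545419-9546508), a ribosome assembly gene, H3.3K27me3 went from 5.93 and 5.53 to 2.11 and no call, and H3K27me3 from 5.19 and 6.30 to 3.46 and no call. Ankar, Insm2 and the group of Ccr10, Cntnap1 and Plekhh3 completed this set. These members and Rrs1 each still had a filtered H3K27me3 peak in 1 day 6 replicate. Members were chosen on day 0 peaks, and this set on not keeping them at day 6. The lower day 6 values here are therefore a description.

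CG content also differed between members with and without H3 peaks. The median member outside chromosome 8 held 1.99 CG per 100 bp, against 0.72 in 10 kb tiles of the genome and 0.656 in the 1330 H3.3K27me3 peaks outside chromosome 8 found in both replicates without H3K27me3 in either. By outcome the medians were 0.846 with both marks kept, 0.807 with H3.3K27me3 alone, 2.38 with H3K27me3 alone and 1.80 with neither. Members with no H3 peak had 2.35, those with an H3 peak in all 4 libraries 0.582 and chromosome 8 members 0.715. Outside chromosome 8, members with an H3 peak in all 4 libraries were also wider and less often at a promoter (30.0% against 72.6% without one). The part of width and promoter content in these medians was not tested. The promoter sequences themselves could not be compared over all members, since 1336 of the 1924 member genes (69.4%) had one in the RefSeq table. Those 1336 held a median of 19 CG per promoter, against 11 for genes outside chromosome 8 without a K27me3 peak. By outcome the medians were 13.5 with both marks kept, 21 with H3.3K27me3 alone (19 genes), 20 with H3K27me3 alone and 21 with neither. The promoters thus did not follow the order of the regions, and their differences were not tested.

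Total H3.3 at the members outside chromosome 8 was called lower or higher at shares near those of other regions. In the authors' deposited table of H3.3 regions, 36.4% of all 14806 regions were lower at day 6 and 13.9% higher at a false discovery rate below 0.05. Of the 1254 regions that overlap a member, 511 (40.7%) were lower and 127 (10.1%) higher, with a median log2 difference (day 6 minus day 0) of -0.14. Of the 12184 regions outside chromosome 8 that overlap no member, 38.6% were lower and 13.3% higher, with the same median of -0.14. The share lower was 30.5% (95 of 311) where both marks were kept, 23.9% (11 of 46) with H3.3K27me3 alone, 50.8% (248 of 488) with H3K27me3 alone and 40.4% (181 of 448) with neither. It was 69.4% (356 of 513) at the H3.3K27me3 peaks outside chromosome 8 without H3K27me3. For H3, the authors' deposited table had 9.24% of 6609 regions higher and 16.6% lower. At members it had 59 of 467 higher (12.6%) and 96 lower (20.6%). Where both marks were kept, 52 of 247 H3 regions were higher (21.1%) and 50 lower (20.2%), with a median of 0.01. With H3K27me3 alone 2 of 88 were higher and 17 lower, and with neither 3 of 103 were higher and 27 lower. These shares are not independent of each other where a region overlaps several members.

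The authors' deposited table of H3K27me3 regions is a description here, because its day 0 libraries chose the members. It had 30.5% of 10481 regions lower and 2.58% higher at day 6. At members outside chromosome 8, 1542 of 2246 regions were lower (68.7%) and 17 higher, with a median log2 difference of -0.36. The medians were -0.10 with both marks kept, -0.20 with H3.3K27me3 alone, -0.37 with H3K27me3 alone and -0.44 with neither. In that deposited table, the scaled read number of the Cyp26a1 region was 2497 and 2647 at day 0 and 1301 and 1193 at day 6, a log2 difference of -1.04. In the deposited H3.3 table the same locus rose by 0.27 (false discovery rate 0.000211). At Bmi1, a subunit of Polycomb repressive complex 1, the deposited H3K27me3 values were 4285 and 4665, then 2461 and 2188 (log2 difference -0.94). Both replicates of day 6 were below both of day 0 at these 2 genes.

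The members covered every HOX gene measured. A member lay at the promoter of 1924 of 22415 genes outside chromosome 8 (8.58%) and of all 39 HOX genes, which set position along the body axis. Of the HOX genes, 29 lay in members that kept both marks and 10 in members that kept H3K27me3 alone. Of 88 other homeobox genes 76 were covered (23 with both kept, 50 with H3K27me3 alone, 3 with neither), of 27 forkhead genes 21, of 13 PAX and ZIC genes 12, of 32 SOX, GATA and T-box genes 23 and of 34 basic helix-loop-helix genes 22. Of 19 Wnt ligands 13 were covered, 12 of them with H3K27me3 alone kept. The 8 of 23 retinoic acid response genes divided into 3 with H3K27me3 alone and 5 with neither, among them Cyp26a1, Cyp26c1 and Crabp2. Only 3 of 25 pluripotency genes (Nanog, Dppa3, Klf5) and 1 of 32 ribosomal protein genes (Rpl13, on chromosome 8) were covered. No gene of any of these lists lay in a member that kept H3.3K27me3 alone, but only 54 of all 2493 member genes lay in such members. Tcf12, a partner of proneural factors at such a member, is in none of these lists.

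The 4 HOX clusters were covered by 5 members of 52.3 to 144 kb, so the genes of a cluster share a member and are not separate observations. The Hoxa member (chr6:52147769-52280834, 11 genes) kept both marks and overlapped no H3 peak. Its H3.3K27me3 enrichment was 4.18 and 4.10 at day 0 and 3.05 and 2.79 at day 6, and its H3K27me3 enrichment was 8.49 and 7.84, then 5.62 and 4.62. The Hoxc member (chr15:102905803-103047481, 9 genes) and the Hoxd member (chr2:74646979-74779266, 9 genes) also kept both. Their H3.3K27me3 enrichment was 4.30 and 5.21 (Hoxc) and 3.83 and 4.26 (Hoxd) at day 0, and 2.58 and 3.01 at day 6 in each. The 9-gene Hoxb member (chr11:96247304-96391096) kept H3K27me3 alone, with H3.3K27me3 at 4.07 and 3.95, then 2.82 and 2.36, and H3K27me3 at 6.76 and 8.76, then 3.02 and 2.62. Hoxb13 lay in a member of its own (chr11:96167279-96219555) that also kept H3K27me3 alone. The values given for the Hoxa, Hoxc, Hoxd and 9-gene Hoxb members were all lower at day 6 than at day 0. Members were chosen on their day 0 peaks of both marks, so these falls are a description. In the authors' deposited table the H3K27me3 log2 difference was -1.15 at Hoxa and -1.43 at Hoxb.

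**Figure D3:**
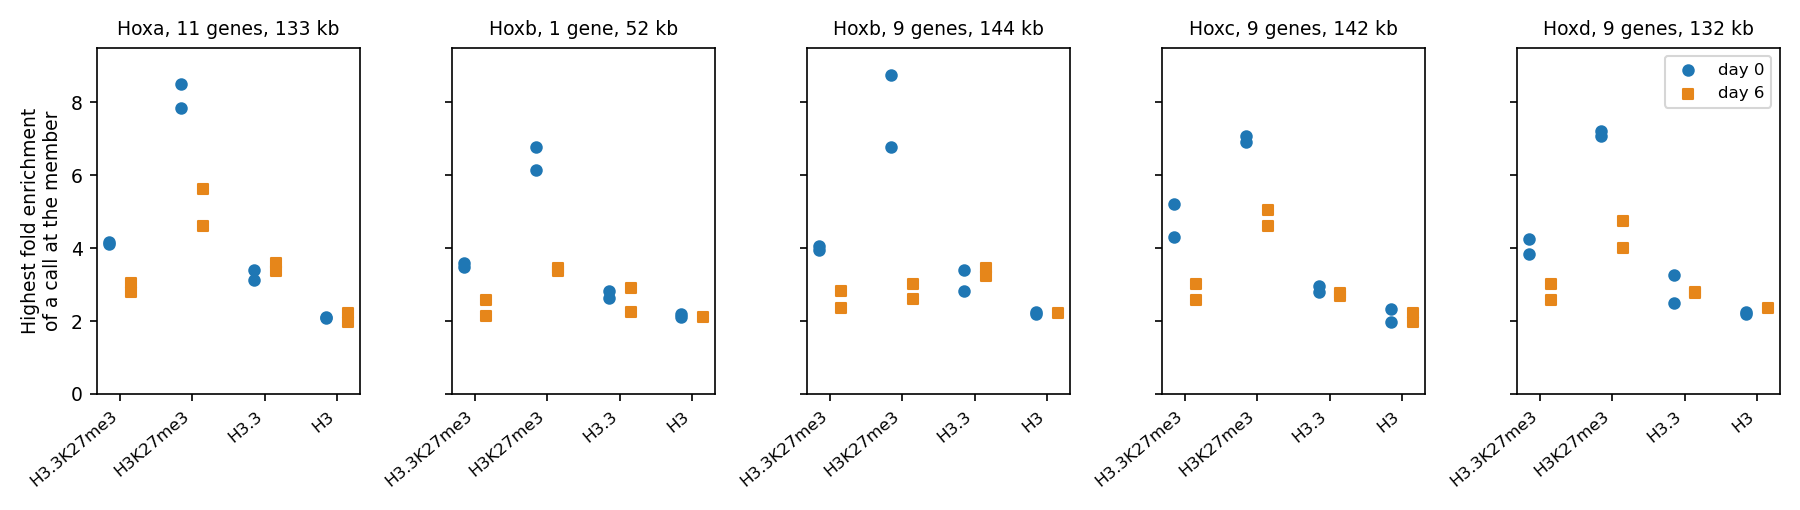
Highest fold enrichment (authors' value, over the genome-wide mean) of a call at each of the 5 HOX members, one panel each, with the 4 antibodies along the x axis. Circles are day 0 and squares day 6 replicates. In the Hoxa panel H3K27me3 falls from 8.49 and 7.84 to 5.62 and 4.62, and in the 9-gene Hoxb panel from 6.76 and 8.76 to 3.02 and 2.62.

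RNA, which the choice of members did not use, was low at the member genes at day 0 and higher at day 6. Over all 1924 member genes outside chromosome 8, 36.0% had at least 1 CPM (counts scaled to library size) in both libraries of day 0 in 2019 and 62.0% in both of day 6. Over the 15263 genes without a K27me3 peak the shares were 47.4% and 48%. The median member gene went from 0.462 to 3.05 CPM and the median gene without a peak from 0.696 to 0.753. By outcome, the share at 1 CPM or more went from 22.6% to 52.7% with both marks kept, from 36.7% to 76.7% with H3.3K27me3 alone, from 34.3% to 61.4% with H3K27me3 alone and from 46.9% to 67.9% with neither. In bulk RNA, more cells that express a gene and more RNA per cell cannot be told apart. Beside this, the summed level of 8 pluripotency markers went from 6491 and 6821 CPM at day 0 to 278 and 284 at day 6, and that of 6 neural progenitor markers from 68.1 and 77.8 to 544 and 589. The sum of 6 primitive endoderm markers went from 9.48 and 10.0 to 757 and 785 CPM, and that of 6 fibroblast markers from 14.6 and 15.1 to 380 and 480. The neuron sum also rose, while the trophoblast sum and the endothelium and blood sum fell. The part of cell composition in the members' levels was not tested.

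In the edgeR quasi-likelihood test of 2019, 41.4% of all 13593 tested genes rose from day 0 to day 6 and 36.6% fell at an adjusted p below 0.05. Of the tested member genes outside chromosome 8, 973 of 1334 rose and 178 fell. A gene silent at day 0 entered the test only by being present later, so this count carries no support of its own. Among the 692 member genes with at least 1 CPM in both day 0 libraries, which enter the test without regard to day 6, 416 rose (60.1%) and 173 fell (25%). Among the 7230 such genes without a K27me3 peak, 2006 rose (27.7%) and 3539 fell (48.9%). By outcome, 31 rose and 35 fell of 74 with both marks kept, 7 and 3 of 11 with H3.3K27me3 alone, 181 and 97 of 347 with H3K27me3 alone, and 197 and 38 of 260 with neither. The share that rose was thus 41.9% where both marks were kept and 75.8% where neither was. Over all tested member genes outside chromosome 8, with the limit on silent genes, the shares were closer. They were 74.3% (142 of 191) with both kept and 78.4% (320 of 408) with neither. The differences between these shares were not tested. With chromosome 8, 1154 of 1707 tested genes rose and 313 fell. On chromosome 8 alone, 181 of 373 rose and 135 fell.

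The same comparison was made at day 3 and in the 2020 series, and its counts carry the same limit on silent genes. At day 3, 37.6% of all tested genes rose and 33.8% fell, and 827 member genes outside chromosome 8 rose and 182 fell of the same 1334, with a median log2 change of 1.53 against 2.52 at day 6. The neuron terminal genes went the other way at day 3, where 1 of 9 rose and 6 fell. In the 2020 series, 36.0% of 14760 tested genes rose and 34.8% fell, and 873 of 1455 member genes rose and 240 fell. Of the 1299 member genes tested in both years, 749 rose in both (of 950 in 2019 and 815 in 2020), 127 fell in both (of 174 and 202) and 42 went in opposite directions. The day 3 and day 6 comparisons of 2019 share their day 0 libraries. The wild type of 2020 had 1 library at day 0, and its spread was taken from the other groups. The summed fibroblast markers, which feeder cells express, were 14.6 and 15.1 CPM at day 0 in 2019 and 349 to 518 CPM in the day 0 libraries of 2020, and their part in the differences between years was not tested. The labels do not say whether RNA duplicates came from separate cultures, and the p-values cover the spread between these libraries, which may be technical.

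**Figure D4:**
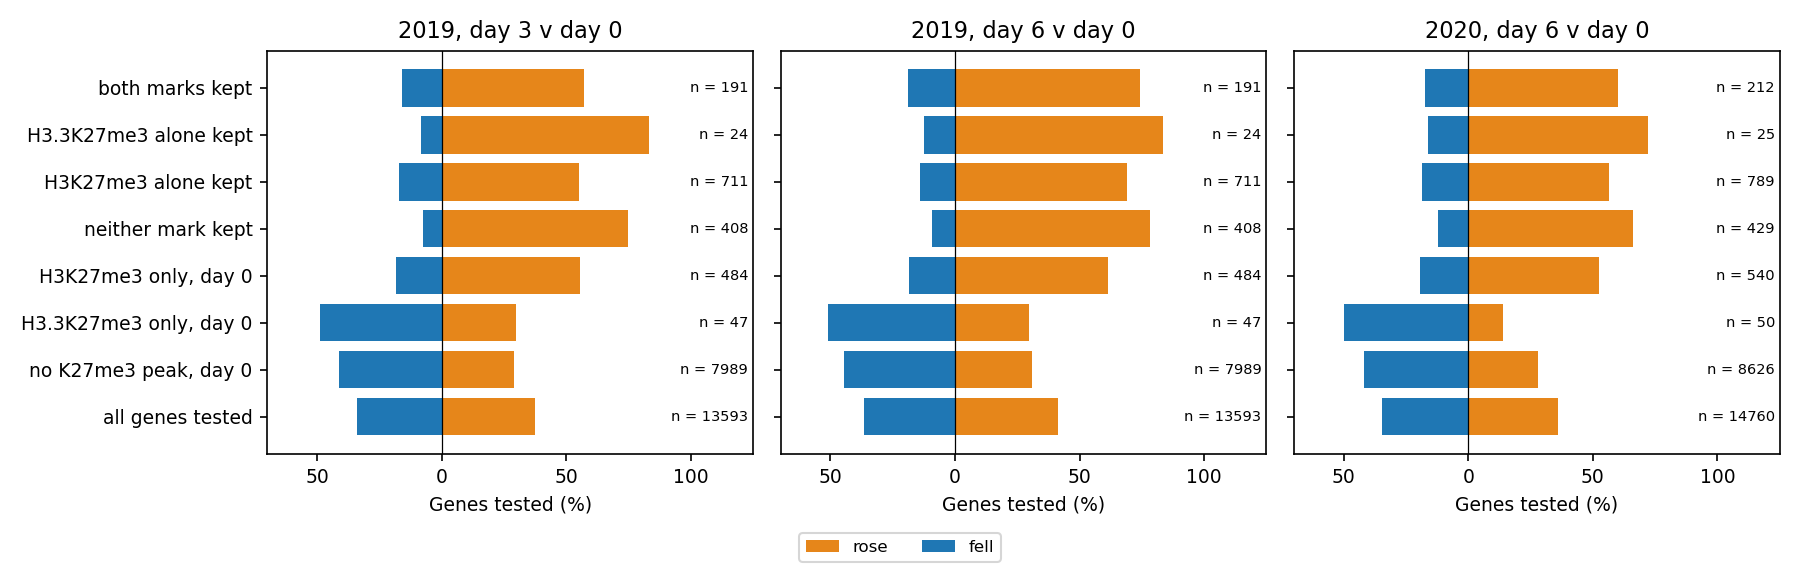
Share of tested genes (percent) that rose, to the right, or fell, to the left, at an edgeR adjusted p below 0.05, in one panel per comparison. Each bar is a set of genes: all genes, member genes by outcome, and genes with 1 mark or none. In 2019, 973 of 1334 member genes outside chromosome 8 rose at day 6, against 41.4% of all genes, with the limit that silent genes enter only by rising.

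The 10 largest rises at member genes reached 23.9 to 184 CPM at day 6 of 2019, and 9 of the 10 genes had no reads at day 0. Lhx1, a LIM homeobox factor, had 0 CPM in both day 0 libraries, 11.6 and 12.5 at day 3 and 132 and 120 at day 6, at least 716-fold higher than a floor of 3 counts over the day 0 group. Neurog2, a proneural factor, had 0 at day 0, 0.567 and 2.10 at day 3 and 99.1 and 89.5 at day 6, at least 535-fold higher. Dbx1, a homeobox factor of spinal interneurons, reached 83.7 and 79.2 from 0 (at least 461-fold). Prdm12, which kept both marks, reached 33.9 and 33.2 from 0 (at least 189-fold). Groups that do not overlap were a condition for naming a gene, so the gap between the days here carries no support of its own. Hoxb3 went from 0 and 0.0937 to 81.6 and 85.6 at day 3 and 184 and 163 at day 6, a ratio of 2950 to its 1 read of day 0 with a counting interval of 529 to 116552. The protease gene Prss12, Hoxb5os, A830082K12Rik, the Notch target Heyl and the mesoderm factor Osr1 completed the 10, at 144-fold or more.

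Cyp26a1, which kept neither mark, responded early. It had 1.93 and 0.750 CPM at day 0, 1344 and 1279 at day 3 and 763 and 730 at day 6. Its log2 change was 10.09 at day 3 (edgeR adjusted p 3.46e-13) and 9.28 ± 0.16 (SE) at day 6 (adjusted p 2.98e-13). Crabp2, a retinoic acid carrier, went from 3.86 and 3.19 to 151 and 150 and then 99.3 and 93.3. Tcf12, which kept H3.3K27me3 alone, was expressed at day 0 at 37.1 and 42.0 CPM and reached 360 and 353 at day 6 (log2 change 3.16, adjusted p 5.5e-12). Rrs1 and Ddx4, which also kept neither mark, were lower at day 6. Rrs1 had 195 and 164 CPM at day 0 and 70.8 and 74.0 at day 6 (log2 change -1.30, edgeR adjusted p 2.35e-08), and Ddx4 had 25.7 and 30.7, then 55.8 and 57.6 at day 3, then 16.7 and 18.2 (log2 change -0.71, adjusted p 0.000126). Loss of both peaks thus went with RNA levels that moved in either direction. Bmi1, which kept H3K27me3 alone, went from 9.00 in both libraries to 76.2 and 73.4 at day 3 and 103 and 104 at day 6.

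**Figure D5:**
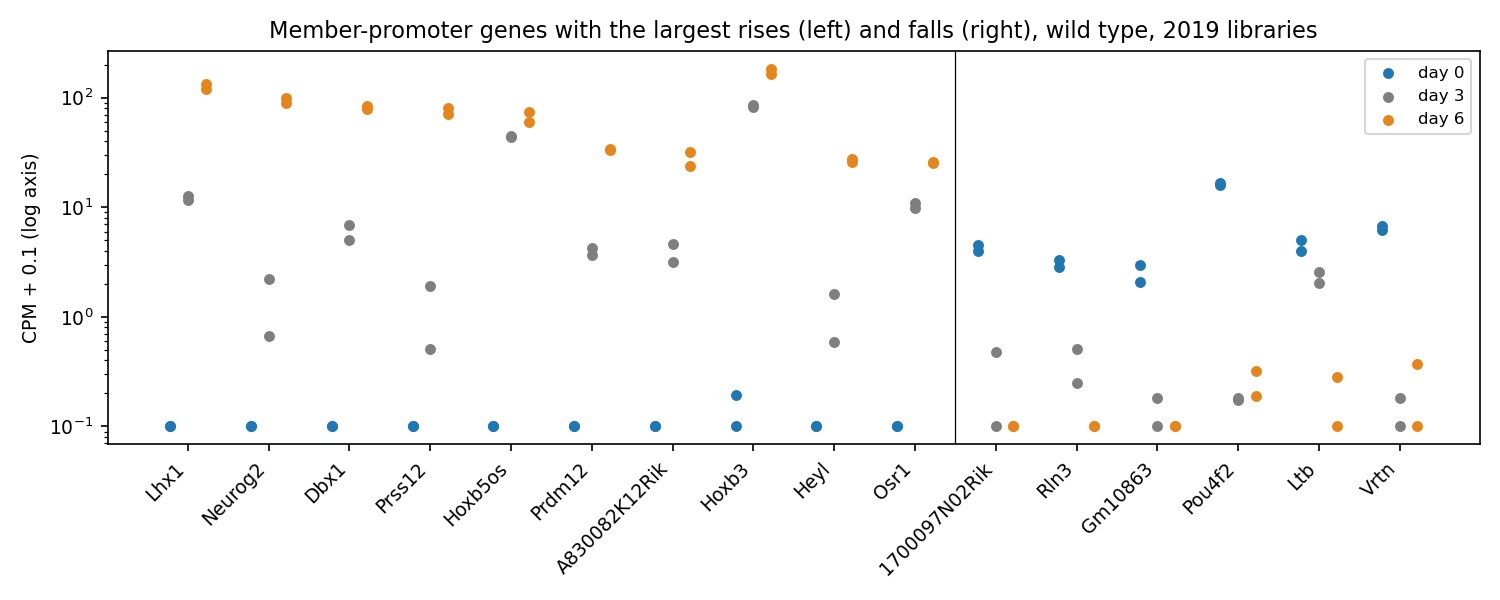
Level of the 10 member genes with the largest rise and the 6 with the largest fall from day 0 to day 6 in 2019, in CPM plus 0.1 on a log axis. Points are libraries, coloured by day. Lhx1 stands at 0 at day 0 and at 132 and 120 CPM at day 6, and Pou4f2 at 15.9 and 16.6 CPM at day 0 and 0.222 and 0.0914 at day 6.

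Fewer member genes fell, and several belong to the pluripotent state or the primed epiblast. Nanog, a core pluripotency factor, lies with Dppa3 in a member of 148256 bp that kept both marks. It went from 408 and 485 CPM to 84.3 and 82.1 at day 3 and 11.4 and 14 at day 6 (log2 change -5.15, edgeR adjusted p 1.39e-12). This member is enriched for H3 as well, at 3.11 and 3.09 at day 0 against 3.37 and 3.00 for H3.3K27me3. Otx2, an anterior homeobox factor, went from 23.8 and 24.7 to 0.324 and 0.675 at day 3 and 0.738 and 1.01 at day 6 (log2 change -4.80, adjusted p 2e-09). Pou4f2, on chromosome 8, fell by 6.55 ± 0.35 (SE) on the log2 scale (adjusted p 2.48e-09). Vrtn had a ratio of 51.1 between day 0 and day 6, with a counting interval of 17 to 252, and Ltb, a lymphotoxin, of 55.0 (14.7 to 462). 1700097N02Rik, Rln3 and Gm10863 had no reads at day 6 and were at least 34.2-fold, 24.6-fold and 18.8-fold lower. In 2020 Nanog went from 583 CPM to 1.77 and 2.31.

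The lists give the direction of the tested member genes by family. They carry the same limit, since silent genes enter the test by being present later, and they are read beside the 41.4% of all genes that rose in 2019 and the 36.0% in 2020. Of all tested member genes outside chromosome 8, 72.9% rose in 2019 and 60.0% in 2020. A family near those shares does not stand apart from the other member genes. Of the HOX genes, 30 of 32 rose at day 6 of 2019 and Hoxc13 fell, from a mean of 3.29 to 0.642 CPM. In 2020, 33 of 36 rose (edgeR adjusted p below 0.05). The other homeobox genes had 42 of 58 rising and 8 falling, among them Otx2, Pou4f2, Gbx2 and Hhex. The forkhead genes had 15 of 17 rising with Foxd3 and Foxi3 falling, the SOX, GATA and T-box genes 16 of 19 with Eomes falling, and the helix-loop-helix genes 15 of 19 with Ascl2 falling. The PAX and ZIC genes had 7 of 9 rising with Zic2 and Zic5 falling. All 8 retinoic acid response genes rose, as did 7 of 7 BMP-family genes, 7 of 10 Wnt ligands and 5 of 6 FGF and hedgehog ligands. The 2020 counts were lower in several of these families. There the helix-loop-helix genes had 9 of 18 rising with Ascl2, Olig1, Olig2 and Tal1 falling, and the BMP family 5 of 9 with Gdf7, Grem1 and Inhba falling. The FGF and hedgehog ligands had 5 of 7 rising with Fgf8 and Dhh falling. In 2020 the other homeobox genes had 44 of 65 rising and 10 falling, the forkhead genes 13 of 17 rising, the SOX, GATA and T-box genes 15 of 21, the PAX and ZIC genes 6 of 10, the Wnt ligands 9 of 12 and the retinoic acid response genes 6 of 7. Of the 9 neuron terminal genes 7 rose in 2019 and Nefh, a neurofilament, fell, whereas in 2020 Mapt and Nefh fell and the median log2 change of the 10 tested was -0.15. The summed neuron markers moved alike, from 421 and 473 CPM to 1039 and 1252 in 2019 and from 548 to 145 and 265 in 2020. The 3 pluripotency genes fell in both years.

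The edited lines were compared with wild type to see what the member genes do when lysine 27 of H3.3 is changed. H3f3a, the gene of the knockout, had 129 CPM in wild type at day 0 and 119 and 114 at day 6, and 20.9 to 23.1 CPM in the 4 knockout libraries. It was also low in H3.3K27A, at 20.4 to 24.2 CPM, and H3f3b was lower there as well, at 499 and 501 CPM at day 0 against 872 and 914 in the knockout and 797 in wild type. By H3f3a level the K27A line stood with the knockout, and both comparisons of it share the K27A libraries.

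At day 0 few member genes differed. Of all genes, 0.569% were higher and 1.17% lower in H3.3K27A than in wild type, and 14 of 1858 member genes were higher and 39 lower (edgeR adjusted p below 0.05). Against the knockout, 0.461% of all genes were higher and 0.806% lower, and 12 member genes were higher and 32 lower. Hoxa10 was 4.23 and 3.74 CPM in H3.3K27A, 1.64 in wild type and 1.48 and 1.99 in the knockout, with log2 differences of 1.28 (adjusted p 0.0355) and 1.19 (adjusted p 0.0234). Pou4f2 was 15.0 and 11.8 against 3.51 in wild type and 4.57 and 4.37 in the knockout (adjusted p 0.0209 and 0.0203). Wnt7b, a Wnt ligand, was lower, at 1.14 in both K27A libraries against 9.81 in wild type, and 2.64 and 4.64 in the knockout (adjusted p 0.00281 and 0.0495). Foxq1, a forkhead factor, was 2.22 and 1.87 against 16.7 and 14.9 in the knockout (log2 difference -2.94, adjusted p 0.034). None of the 8 genes named against the knockout and 2 of the 8 against wild type passed under every setting tried. Leaving out either K27A library left 1 gene higher and 7 or 10 lower than wild type. Leaving out any 1 of the 4 libraries left 0 genes higher and 4 to 7 lower than the knockout.

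At day 6, H3.3K27A differed from wild type at few member genes and from the knockout at more. Against wild type, 1.13% of all genes were higher and 0.908% lower, and 50 of 1858 member genes were higher and 32 lower. Against the knockout, 9.03% of all genes were higher and 9.64% lower, and 249 member genes were higher (201 of 1455 outside chromosome 8) and 182 lower (128). The posterior genes Hoxa10 and Hoxa9 were among those named. Hoxa10 was 35.6 and 36.5 CPM in H3.3K27A, 7.32 and 7.41 in wild type and 11.8 and 10.2 in the knockout, with log2 differences of 2.29 ± 0.14 (SE, adjusted p 0.000137) and 1.71 (adjusted p 0.000132). Hoxa9 was 65.5 and 63.5 against 15.5 and 12.8 in wild type and 9.85 and 20.9 in the knockout (adjusted p 0.00788 and 0.00131). Of the 8 genes named against wild type at day 6, Hoxa10 alone passed under every setting tried, and Hoxa9 passed in 4 of 8. In all, 6 of 36 HOX genes were higher than wild type (Hoxa9, Hoxa10, Hoxb13, Hoxc8, Hoxc9, Hoxd1), and 7 were higher than the knockout. Wild type of 2019 had 17.4 and 14.3 CPM of Hoxa10 at day 6, between these groups. Leaving out any 1 of the 4 libraries left 2 or 3 member genes higher and 0 to 3 lower than wild type. Against the knockout, leaving out 1 K27A library gave 99 or 134 higher and 56 or 81 lower, without the first knockout replicate 351 were lower, and without the second 529 were higher.

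Wnt ligands and the BMP antagonist follistatin also differed from the knockout at day 6. Wnt2b was 21.7 and 20.6 CPM in H3.3K27A and 2.46 and 2.53 in the knockout (log2 difference 3.08 ± 0.20, edgeR adjusted p 0.000107), with wild type between them at 11.1 and 14.1. Of 12 Wnt ligands tested, 6 were higher than in the knockout, beside 9.03% of all genes. Against wild type at day 6, 1 of the 12 was higher, beside 1.13% of all genes. Fst, which encodes follistatin, was 31.9 and 40.3 CPM against 416 and 176 in the knockout (log2 difference -3.04 ± 0.35, adjusted p 0.000591), with wild type at 37.9 and 50.4, so here the knockout was the line that stood apart. Crh, a stress hormone, was 1.49 and 1.67 against 0.157 and 0.177 (adjusted p 0.00688). Beside these, the summed primitive endoderm markers were 1225 and 2056 CPM in the knockout, 707 and 782 in H3.3K27A and 807 and 895 in wild type of 2020. The part of cell composition in the differences from the knockout was not tested. ChIP-seq was analysed in wild type alone, so marks at the members in the edited lines were not analysed here.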

How the data were processed

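Wild-type ChIP-seq (16 libraries, each sequenced in 3 runs) and 17 RNA-seq libraries were used. The members, gene lists and tests were chosen with earlier results of these data known. The authors aligned reads to mm10 with STAR 2.5.2a, per the submitters' processing notes. They called peaks in each library with MACS2 2.2.6, per the file headers, without a control, with a fixed genome-wide background, 1 tag per position, calls at p 0.01, at least 1000 bp long and joined over gaps of up to 5000 bp. Each deposited call holds a fold enrichment, which is a ratio, and a −log10 p. The deposited filtered lists are the peaks used here, and how they were filtered is not given in the sources used here. Enrichment at a member is the highest of the unfiltered calls that overlap it. The authors' 3 region tables hold deposited signal (scaled read numbers), a log2 difference of day 0 minus day 6, whose sign was turned here, and p-values with false discovery rates. The submitters' processing notes name DiffBind.

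The authors deposited raw RNA counts for each gene symbol. The submitters' processing notes name HTSeq as the counter. The strand setting is not given in the sources used here, so antisense and overlapping genes, such as Hoxb5os and the HOX genes beside it, are not fully separated, and near-identical copies (Mir101c, Pisd-ps1, Smarca5-ps, Gm13271) are uncertain. Libraries held 6.97 to 12.71 M counts in genes in 2019 and 14.27 to 22.03 M in 2020, and ChIP libraries 30.45 to 74.23 M tags with 9590 to 26198 filtered peaks. Counts were tested with edgeR 4.0.16 in R 4.3.3 (filterByExpr, TMM, quasi-likelihood F-test, Benjamini-Hochberg adjustment over all tested genes, calls at 0.05), with the years fitted separately. The lone day 0 wild-type library of 2020 takes its spread from the remaining groups. CPM, counts per library size in the usual unit, uses the same TMM scaling. An exact permutation test of 2 against 2 libraries cannot reach 0.05, which is why the pooled model was used. Intervals and the floor of 3 counts cover counting error only.

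Named peaks were, among members at a promoter, the 5 of each outcome with the highest value of their lowest day 0 enrichment. Named genes were, among called member genes with groups that do not overlap and at least 1 CPM in 1 group, the 10 largest rises and 6 largest falls of 2019 day 6 and the 4 largest each way elsewhere, with the 3 genes of the longest members in each list. Others were named after their values were seen. Promoters came from GENCODE M21 and sequences from RefSeq on GRCm38.p6. The alternatives were DESeq2 1.42.0, no count filter, a replicate block, each library left out, stricter overlap and enrichment, equal numbers of peaks, and, chosen after seeing the data, members outside chromosome 8, with or without an H3 peak. The test code was tested on simulated data.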

Additional observations from a re-analysis of the deposited data

Results flagged for a closer look

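Acvrl1, a receptor of the BMP family whose promoter lies in a member, moved in opposite directions from day 0 to day 6 in the 2 wild-type series. In 2019 it went from 2.25 and 2.06 CPM to 4.21 and 4.85, a log2 change of 1.07. In 2020 it went from 1.81 CPM in the lone day 0 library to 0.886 and 0.959, a log2 change of -0.97. The difference between the years was not tested.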

How the results depend on the processing

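Member counts depended on the peak lists. When each overlap had to cover at least 50% of the reference peak, H3.3K27me3 was kept at 852 members, both marks at 712, and 874 and 913 members overlapped H3.3 and H3 peaks. With equally many of the strongest peaks taken from each list these counts were 770, 686, 826 and 951, and with enrichment at or above the median 1162 members overlapped H3.3 peaks. The values over all members were 1582, 1399, 1782 and 1541. With 1 replicate in place of 2, the members numbered 5349 to 6634, with H3.3K27me3 kept at 2046 to 3105, H3K27me3 at 3366 to 4352 (2680 with both replicates), both at 1725 to 2454 and neither at 1631 to 1662 (925). H3.3 and H3 peaks then overlapped 2912 to 3199 and 2010 to 2798. Outside chromosome 8 the 2346 members had H3.3K27me3 kept at 430, H3K27me3 at 1425 and both at 359, with H3.3 and H3 peaks at 834 and 365. Without an H3 peak the 1411 members had 73, 830, 63 and 571 with neither, and 342 with H3.3 peaks. A log2 difference of at least 1 left 0 H3.3 regions higher and 1 lower, and 0 H3 regions in either direction. Outside chromosome 8, 127 H3.3 regions were higher, 59 H3 regions higher and 96 lower, and the median H3K27me3 difference was -0.36 against -0.27 over all members.

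The wild-type time courses changed least. Outside chromosome 8, 178, 182 and 240 genes fell (2019 day 6, day 3, 2020), against 313, 297 and 366 over all members. With 1 library left out, 1123 to 1176 rose and 275 to 319 fell (2019 day 6), 899 to 977 and 258 to 304 (day 3), and 940 to 957 and 323 to 333 (2020). All 32 calls of named genes in these contrasts, in which some genes recur, were kept under the settings run. The contrasts of the edited lines moved more. Against wild type at day 0, 14 rose and 39 fell, DESeq2 had 26 rising, no filter 25 and 71, members by 50% overlap 8 rising, and leaving out a library 1 to 1 and 7 to 10. Against the knockout at day 0 (12 and 32), DESeq2 had 28 and 56, no filter 23 and 58, and leaving out a library 0 to 0 and 4 to 7. Against wild type at day 6 (50 and 32), no filter had 81 and 77 and leaving out a library 2 to 3 and 0 to 3. Against the knockout at day 6 (249 and 182), leaving out a library gave 99 to 529 and 56 to 351. Of the 8 genes named in each of these contrasts 2, 0, 1 (Hoxa10) and 8 kept their call in every setting run. Fewer samples leave a less precise spread. The cause of the other shifts was not tested.

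Samples share only a replicate number. The deviations of same-numbered libraries correlated at -0.03 (2019 day 0 with day 6), -0.17 and -0.31 (K27A with knockout, days 0 and 6) and 0.23 (K27A with wild type, day 6). With the replicate number as a block, 1157 rose and 309 fell (2019 day 6), 971 and 296 (day 3), 1000 and 348 (2020), 6 and 25 (K27A against wild type, day 0), 3 and 19 (knockout, day 0), 25 and 17 (wild type, day 6) and 211 and 140 (knockout, day 6). With the knockout numbers crossed, the block gave 18 and 41 at day 0 and 306 and 229 at day 6. The depth of the day 6 H3.3K27me3 libraries, 30.45 and 34.20 M tags, limits how weak a peak could be kept.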
